A study of Mus musculus with 2 samples.

Results

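Signalling through phosphoinositide 3-kinase (PI3K), the kinase Akt and the kinase mTOR was described here at the level of N6-methyladenosine (m6A), an internal mark of mRNA, in the mouse uterus. The list held 35 genes of this pathway, and a peak was counted for a gene when its summit lay inside the RefSeq span of that gene in the mm10 genome. By this rule 102 of the 38366 peaks in the deposited list belonged to the pathway genes. They fell in 33 of the 35 genes. The measurement was methylated RNA immunoprecipitation sequencing (MeRIP-seq), in which RNA fragments held by an anti-m6A antibody are sequenced beside the starting RNA, the input. The m6A group was 1 library, from wild-type mice of the strain C57BL/6, for which whole uteri were combined: tissue of gestation day 4 was mixed with as much of gestation day 8. The input group was 1 library of whole C57BL/6 uterus with no antibody, and its label names neither a day nor a pool. Whether it is the starting RNA of the m6A library is therefore not known. In a fold, m6A enrichment and a difference in RNA abundance between the samples cannot be told apart. Peak names in the list mention day 8 only, so the makeup of the immunoprecipitated sample rests on its label. No group had a replicate, so nothing was tested between groups. Each value describes this pair of libraries.

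In this pathway, growth factor receptors recruit PI3K, which makes a membrane lipid that brings the kinase PDK1 and Akt together. Akt then restrains GSK3 and the TSC complex, which frees the small GTPase Rheb to activate mTOR complex 1, and that complex drives translation through the S6 kinases and the 4E-BP proteins. The kinase LKB1 acts on AMPK, which holds mTOR complex 1 back when energy is short. In the uterus the pathway is known for carrying estrogen and IGF1 signals in epithelial growth and for its part in the response of stromal cells during decidualization. The m6A mark is read by proteins that affect the decay, splicing and translation of mRNA, and it is often found near stop codons, in long exons and near transcript starts.

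Peaks over transcript starts gave some of the highest and the most ambiguous values in these genes, so the sequence at 4 of these starts is shown. Each is read 5′ to 3′ on the transcribed strand from RefSeq windows of GRCm38.p6, the assembly of mm10. Positions are counted from an annotated start, whose first transcribed base is 0. Capitals mark the 54 bases before the start that the peak covered in Pik3r1, the summit base in Rheb, and a match to the m6A consensus in Eif4ebp2 and Mapkap1. The windows are chr13:101768218-101768317 and chr5:24842362-24842461, both from -100 to -1, then chr10:61452704-61452733, from -64 to -35, and chr2:34406871-34406900, from 20 to 49. The first 3 lie on the minus strand and Mapkap1 on the plus strand.
Pik3r1: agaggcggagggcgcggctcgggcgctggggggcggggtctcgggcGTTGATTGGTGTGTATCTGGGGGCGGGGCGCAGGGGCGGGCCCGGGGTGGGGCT
Rheb: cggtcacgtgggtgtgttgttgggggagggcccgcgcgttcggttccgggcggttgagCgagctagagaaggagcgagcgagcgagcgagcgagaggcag
Eif4ebp2: ggcggaggccggaGGACCgggcggcggcgg
Mapkap1: tcgtggcgcggctctgggTAACAgggctgc
The consensus, known as DRACH, was searched on the transcribed strand as 18 words of 5 letters: A, G or T first, then A or G, then AC, then A, C or T. The words can overlap each other. At least 1 of them stood in 98.4% of all 32851 windows of 300 bases around RefSeq starts, so a match in a window of that length is the rule. In the first 50 transcribed bases the share was 54.4%. The part of the window under the peak held 1 match in Eif4ebp2, in Mapkap1 and under a peak upstream of Pik3r2, and none in Pik3r1, Pik3cb, Pik3r3, Rheb and Rps6kb1. The window ended after 50 transcribed bases, and the summits of Pik3cb, Pik3r1, Rps6kb1, Mapkap1 and Pik3r3 lay beyond it, at positions 71 to 232. The summit upstream of Pik3r2 lay before the window, at -632. The sequence at these summits was therefore not searched, and no match does not mean a peak without the consensus. A match is a description of these letters and no site of modification, and most of each transcript lay outside the window.

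Most of the pathway carried peaks, and the enrichment of those peaks was like that of other genes. Of the 35 genes 33 had a peak (94.3%, exact Clopper-Pearson 95% interval 80.8 to 99.3), against 55.7% of all 21787 protein-coding genes. The list was chosen with earlier results of these data known and is no random sample of genes, so this share is a description and no test. The same holds for every share of a chosen list given below. The listed genes are long, with a median span of 69.0 kb against 17.2 kb for all protein-coding genes. Whether span accounts for the higher share was not tested. Among protein-coding genes with spans between the quartiles of the list, 68.6% carried a peak, and among the 17 listed genes of that length 16 did. Fold enrichment, as the authors' peak caller gave it, divides the immunoprecipitated (IP) fragments at a summit by the local background, after 1 fragment is added to each. Its median was 5.99 over the 102 peaks, with quartiles of 4.20 and 7.77, and 6.09 over the 32945 peaks in protein-coding genes. For the highest peak of each gene the median was 8.36-fold over the 33 genes and 8.04-fold over the 12134 protein-coding genes with a peak. A peak of at least 10-fold was present in 11 of the 35 genes (31.4%, 16.9 to 49.3), against 17.5% of all protein-coding genes. Among genes with any peak these shares were 33.3% and 31.4%, and the listed share was thus close to the background. In bulk tissue fewer cells of a type and less RNA per cell cannot be told apart. Without expression values, a gene with no peak may be unmethylated, unexpressed or thinly covered.

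**Figure D1:**
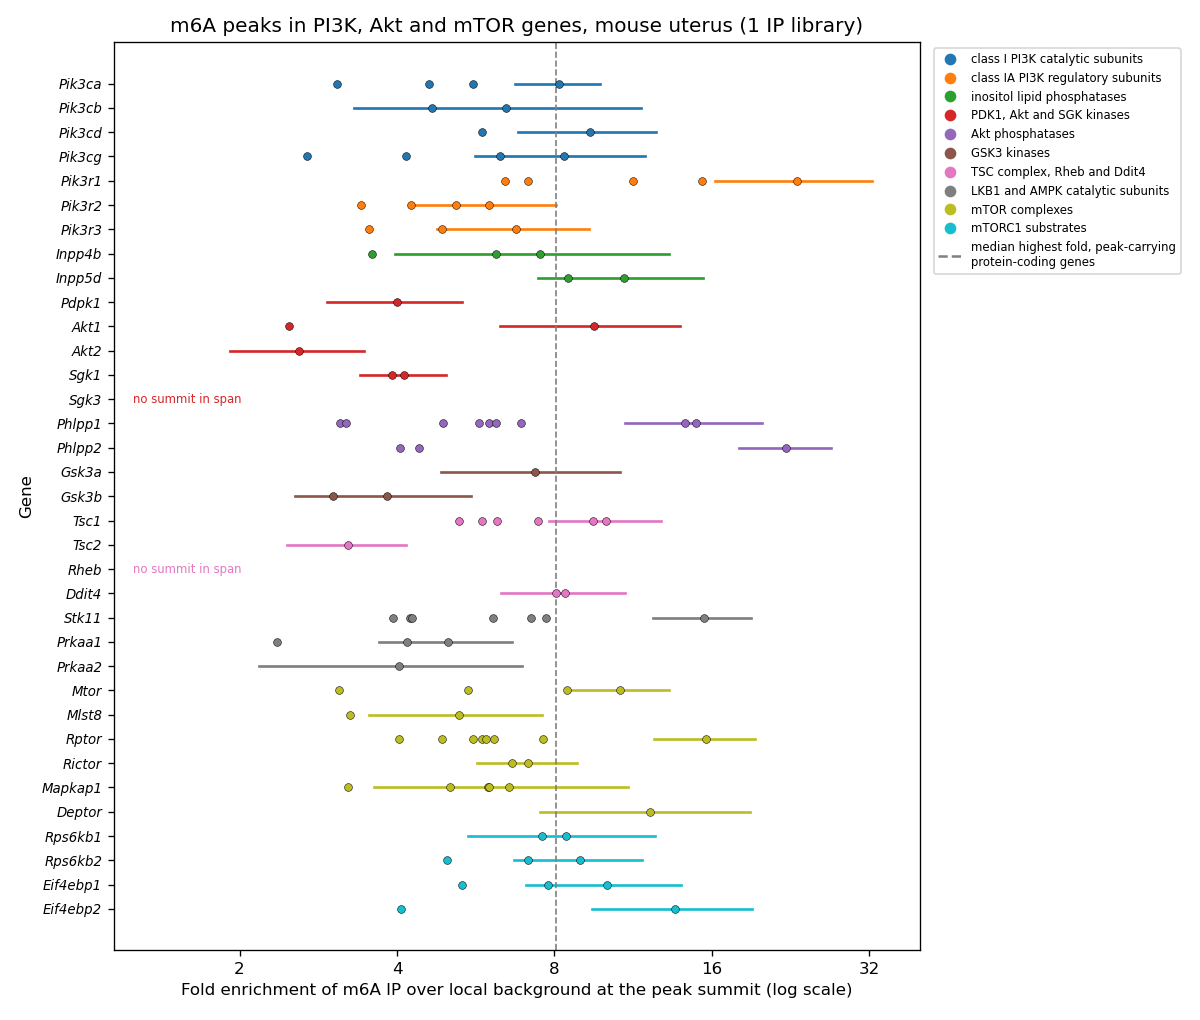
Fold enrichment at the summit (log scale) of every peak in each of the 35 genes, coloured by role, with the exact 95% Poisson interval drawn for the highest peak of each gene and a dashed line at 8.04, the median highest fold of peak-carrying protein-coding genes. Pik3r1 and Phlpp2 reach above 20-fold, Akt2, Tsc2 and Gsk3b stay under 4-fold, and Sgk3 and Rheb have no summit inside the span.

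The catalytic subunits of class I PI3K all carried peaks of middling enrichment, 12 in all. Pik3ca encodes p110 alpha, the form that most growth factor receptors use (NCBI Gene 18706, chromosome 3, 32397065 to 32466112). It held 4 peaks of 3.07, 4.61, 5.60 and 8.16-fold. The highest, at 32462398 to 32463156, had 113 IP fragments over a background of 12.97 scaled fragments (95% interval of the fold 6.74 to 9.80). Intervals on folds are exact Poisson intervals of the IP count at a given background, so they hold the counting error of the IP library alone. All its peaks but that of 4.61-fold lay within the last 4432 bases of the span. Pik3cd encodes p110 delta, a form best known from leukocytes, and held 2 peaks near its 3′ end, the higher at 9.35-fold (6.83 to 12.5). This peak lies on chromosome 4 at 149649751 to 149650107, is 357 bases wide and had 43 IP fragments over 3.71. Pik3cg, which encodes p110 gamma, the form activated by G protein-coupled receptors, held 4 peaks of 2.69 to 8.36-fold. Pik3cb, which encodes p110 beta, held 1 peak at its 3′ part of 4.67-fold and 1 at its start of 6.48-fold (3.31 to 11.7). The peak at the start rested on only 9 IP fragments, and its summit also lay inside the predicted gene Gm2773. The intervals of the highest peaks overlapped in all 6 pairs of these 4 genes, so their order is not resolved by the counts.

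Among the regulatory subunits, which hold the catalytic subunit and bind activated receptors, Pik3r1 stood above both others. Pik3r1 encodes p85 alpha and its short forms (NCBI Gene 18708, chromosome 13, 101680761 to 101768217). It had the highest peak of the whole list, at 23.3-fold (16.2 to 32.4), spanning 101767802 to 101768271. Of the protein-coding genes with a peak, 213 (1.76%) reached this fold or more. Its summit lay 112 bases inside the annotated start and the peak extended 54 bases before it, over the bases in capitals above. It had 33 IP fragments over 0.462, the genome-wide background that the caller used where the input gave no higher local value, so the denominator holds little information from the input. A second high peak, of 15.3-fold (12.6 to 18.5), lay 10182 bases from the start and rested on 109 IP fragments over 6.18. The other 3 peaks, of 11.3, 7.11 and 6.44-fold, lay 3593 to 6570 bases from the 3′ end, and the first of them had 143 IP fragments, the most of any of the 102 peaks. Pik3r2, which encodes p85 beta, held 4 peaks of 3.41 to 5.99-fold in a span of only 8.54 kb. Pik3r3, which encodes p55 gamma, held 3 peaks of 3.54 to 6.76-fold. The highest peak of Pik3r1 had an interval above those of Pik3r2 (4.36 to 8.05) and Pik3r3 (4.77 to 9.33), while the last 2 overlapped. Upstream of Pik3r2, 632 bases outside its span, a peak of 8.73-fold lay in 2010320M18Rik and did not count toward it.

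The lipid phosphatases of the list both carried peaks. Inpp5d encodes SHIP1, which removes the 5-phosphate of the PI3K product and is known from blood cells. It held 2 peaks in the last 2762 bases of its span, of 8.48 and 10.9-fold. The higher, on chromosome 1 at 87719243 to 87720202, had 30 IP fragments over 1.85 (7.45 to 15.4). Both summits also lay inside the predicted gene Gm33470, so Inpp5d had no peak that was its alone. Inpp4b, which removes the 4-phosphate of a later product, held 3 thin peaks in a span of 792 kb. Their folds were 3.58, 6.18 and 7.53, from 7, 9 and 10 IP fragments, and the summits lay 210054 to 508227 bases from the start. These are among the least covered peaks described here.

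The kinases directly downstream of PI3K had the lowest median highest fold, 4.06, of the roles with at least 3 genes. The maximum of the role, in Akt1, was not the lowest of these roles. Pdpk1, which encodes PDK1, the kinase that phosphorylates Akt in its activation loop, held 1 peak of 4.0004-fold (2.94 to 5.32). Akt1 held a peak of 9.53-fold (6.29 to 13.9) on chromosome 12 at 112671548 to 112671813, from 25 IP fragments over 1.73, and its summit lay 3226 bases inside the start. At its 3′ end a wider peak of 897 bases had 63 IP fragments but a background of 24.7, and so only 2.49-fold (1.92 to 3.17). Of the Akt1 peaks, the one with more IP fragments therefore had the lower fold. Akt2, the isoform most tied to insulin action, had a single peak of 2.60-fold (1.91 to 3.46), 1568 bases from its 3′ end. This was the lowest highest fold among the 33 genes, and its interval lay below that of the Akt1 peak of 9.53-fold. It did not lie below the interval of the Akt1 peak at the 3′ end. Sgk1, a kinase of the same family that steroid hormones are known to induce, held 2 peaks of 3.92 and 4.12-fold. Both were well covered, with 61 and 110 IP fragments over 14.8 and 25.9. The first lay 234 bases inside an annotated start 112482 bases into the span, 1 of 6 starts listed for Sgk1. Sgk3, its endosomal relative, had no summit in its span and none within 5000 bases of it.

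The phosphatases that remove phosphate from Akt carried some of the strongest peaks. Phlpp2 (NCBI Gene 244650, chromosome 8, 109868517 to 109944671) reached 22.2-fold (18.1 to 27.0), second in the list. The peak spanned 109939570 to 109941448, was 1879 bases wide, and had 98 IP fragments over 3.46, with a −log10 q of 99.2, the highest of the 102 peaks. The summit lay 3961 bases from the 3′ end. The other 2 peaks of Phlpp2 reached 4.05 and 4.40-fold, with intervals below that of the highest. Phlpp1 held 9 peaks, the most of the list, and 2 of them stood above the rest at opposite ends of a span of 222 kb. One, of 14.9-fold (10.9 to 19.9), lay 1362 bases from the start, on chromosome 1 at 106172512 to 106173639, with 44 IP fragments over 2.01. The other, of 14.2-fold (11.6 to 17.2), lay 1131 bases from the 3′ end with 101 IP fragments over 6.18. The remaining 7 ran from 3.11 to 6.92-fold, and each had an interval below that of the highest. The intervals of the highest peaks of Phlpp1 and Phlpp2 overlapped.

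The GSK3 kinases, which Akt inhibits, carried few peaks. Gsk3a had 1 peak of 7.34-fold (4.85 to 10.7) on chromosome 7 at 25237445 to 25237782, 229 bases inside its start, with 25 IP fragments over 2.54. Gsk3b, in a span of 157 kb, had 2 peaks of 3.02 and 3.83-fold, the first 1369 bases from the start and 1282 bases wide. No summit lay in the last 97591 bases of Gsk3b. The intervals of the highest peaks of the 2 genes overlapped.

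The TSC complex, which turns Rheb off, differed between its 2 listed subunits. Tsc1 encodes hamartin (NCBI Gene 64930, chromosome 2, 28640993 to 28691172). It held 6 peaks, all in the last 14846 bases, at 6.23, 5.26, 7.44, 10.1, 9.48 and 5.82-fold in order from the start. The highest, at 28685537 to 28686124, had 65 IP fragments over 5.56 (7.80 to 12.8). Tsc2, which encodes tuberin, the subunit that acts on Rheb, had only 1 peak, of 3.23-fold (2.46 to 4.15) from 58 IP fragments over 17.3. That summit, 470 bases from the 3′ end, also lay inside the neighbouring gene Pkd1. The interval of the highest Tsc1 peak lay above that of Tsc2. Ddit4 encodes REDD1, a stress-induced activator of the TSC complex, and is the shortest gene of the list at 2.096 kb. It held 2 peaks, of 8.39-fold (6.34 to 10.9) from 54 IP fragments over 5.56 and of 8.05-fold (4.73 to 12.9) from 15 IP fragments over 0.988, the second 181 bases from the start.

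Rheb, the GTPase that activates mTOR complex 1, had no summit inside its span. A peak of 8.06-fold (5.18 to 12.03) covered its start, however, on chromosome 5 at 24842219 to 24842573, with 22 IP fragments over 1.85. The summit lay 42 bases before the annotated start, at the base in capitals above, and in no annotated gene. Of its 355 bases, 143 lay inside Rheb. Counting a peak that shares at least 1 base with the span would add Rheb and raise the count to 34 genes. The list gives no strand, so the direction of the RNA under this peak is not known.

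LKB1 and AMPK sense energy shortage and oppose mTOR complex 1. Stk11, which encodes LKB1 (NCBI Gene 20869, chromosome 10, 80115767 to 80130679), held 7 peaks in a span of 14.9 kb. The highest reached 15.4-fold (12.4 to 19.0) at 80115848 to 80116877, with 85 IP fragments over 4.57, and its summit lay 945 bases from the start. All other 6 peaks, of 3.94 to 7.70-fold, had intervals below it, and the one of 6.10-fold at the 3′ end lay also in Cbarp. The catalytic subunits of AMPK itself were lower. Prkaa1 held 3 peaks of 2.36, 4.18 and 5.0005-fold, and the highest had an interval of 3.69 to 6.63. Prkaa2 had 1 peak of 4.03-fold (2.18 to 6.95) from 11 IP fragments, with a −log10 q of 3.66. The intervals of Prkaa1 and Prkaa2 overlapped, and both lay below that of the highest Stk11 peak.

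All 6 listed genes of the mTOR complexes carried peaks, 22 in all. Rptor encodes raptor, the scaffold that brings substrates to mTOR complex 1 (NCBI Gene 74370, chromosome 11, 119602905 to 119899591). Its highest peak, at 119898437 to 119899392, reached 15.6-fold (12.4 to 19.3) from 80 IP fragments over 4.20, with the summit 368 bases from the 3′ end. The other 7 peaks of Rptor, spread over 297 kb, ran from 4.04 to 7.61-fold, and all had intervals below the highest. Rictor, the matching scaffold of mTOR complex 2, held 2 peaks of 6.65 and 7.13-fold in its last 13664 bases, with 59 and 81 IP fragments. The interval of its highest peak (5.68 to 8.84) lay below that of Rptor. Mtor, the kinase of both complexes, held 4 peaks of 3.10, 10.7, 5.47 and 8.45-fold in order from the start. The peak of 10.7-fold (8.52 to 13.3), on chromosome 4 at 148495996 to 148496346, had 81 IP fragments over 6.67. It and both its neighbours also lay inside Angptl7, a gene within the Mtor span. The peak of 8.45-fold (6.59 to 10.7), 632 bases from the 3′ end, lay in Mtor alone, and this was the highest fold of Mtor when shared summits were left out.

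Deptor, an inhibitor that binds mTOR, had 1 peak of 12.2-fold (7.50 to 18.9) on chromosome 15 at 55248710 to 55248929. It was 220 bases wide and rested on 18 IP fragments over 0.556, close to the genome-wide background. Mapkap1, which encodes SIN1 of mTOR complex 2, held 5 peaks of 3.22 to 6.54-fold spread over 218 kb, with the highest (3.62 to 11.0) from 12 IP fragments. Its first peak, of 5.98-fold, began 28 bases inside the annotated start shown above. Mlst8, a subunit of both complexes, held 2 peaks of 3.26 and 5.26-fold, and the lower lay also in Bricd5.

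The 4 substrates of mTOR complex 1 that control translation had highest peaks of 8.41 to 13.6-fold. The median over all protein-coding genes with a peak was 8.04-fold. Eif4ebp2, a 4E-BP that blocks the cap-binding factor eIF4E until mTOR phosphorylates it, reached 13.6-fold (9.46 to 19.1) on chromosome 10 at 61452508 to 61452849, with 32 IP fragments over 1.42. The summit lay 11 bases before an annotated start and 110 bases inside the outermost start of the span. The other Eif4ebp2 peak, of 4.07-fold (3.28 to 4.996), had more IP fragments, 89, over a background of 21.1. Eif4ebp1 held 3 peaks, at 10.1-fold (7.07 to 13.98), 7.79-fold and 5.33-fold, in order of position on chromosome 8. The first, at 27260325 to 27260743, had 34 IP fragments over 2.47, and the other 2 had 127 and 113 over 15.4 and 20.4. In both 4E-BP genes the peak with the fewest IP fragments thus had the highest fold. Rps6kb1, which encodes S6 kinase 1, held peaks of 8.41-fold (5.46 to 12.4) at the start and 7.59-fold (6.13 to 9.30) 3833 bases from the 3′ end. Rps6kb2, which encodes S6 kinase 2, held 3 peaks of 8.96, 4.99 and 7.13-fold within 6.59 kb. The intervals of the highest peaks overlapped between the S6 kinases and between the 4E-BP genes.

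Across the 18 pairs of related genes compared in this way, 5 had highest peaks with intervals apart: Akt1 above Akt2, Pik3r1 above Pik3r2 and above Pik3r3, Tsc1 above Tsc2, and Rptor above Rictor. The other 13 overlapped, which does not show that the genes were alike. In all 5 pairs with intervals apart, the gene with the higher peak also held more peaks. Spearman's rho between highest fold and number of peaks was 0.52 over the 33 genes with a peak. The highest fold is a maximum over the peaks of a gene, so it tends to rise with their number in any list. Neither relation is therefore a result about these genes, and rho over all protein-coding genes was not computed. The pairs were chosen after the values were seen, and no other gene pairs were compared, so 5 of 18 has no background share beside it. Within genes, the highest peak had an interval above all other peaks in 5 of the 27 genes with at least 2 peaks, namely Akt1, Eif4ebp2, Phlpp2, Rptor and Stk11. These are contrasts of counting error in 1 pair of libraries. The highest peak of a gene was picked by the same fold that was then compared. The share over all protein-coding genes was not computed, so whether 5 of 27 is usual is not known.

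Peaks lay along the genes much as in protein-coding genes at large. A strand was listed for 31 of the 35 genes, and it was not used for Sgk3, Deptor, Rps6kb2 and Eif4ebp1. Of 95 summits in the stranded genes, 10 (10.5%) lay within 1000 bases of the start, 14 (14.7%) within 1000 bases of the 3′ end and 71 (74.7%) between. The shares over 27037 summits in stranded protein-coding genes were 9.94%, 15.3% and 74.2%. By gene, 13 of 31 (41.9%, exact interval 24.5 to 60.9) had a summit within 1000 bases of the 3′ end, against 23.2% of 17492 protein-coding genes. A peak over the first 50 transcribed bases of an annotated start was found in 7 of 31 (22.6%, 9.59 to 41.1), against 11.9%. These 7 were Eif4ebp2, Mapkap1, Pik3cb, Pik3r1, Pik3r3, Rheb and Rps6kb1. Both background shares are over all genes with a listed strand, with or without a peak. Of the list 33 of 35 genes carried a peak, against 55.7% of protein-coding genes. Neither comparison by gene was made among genes with a peak alone, so neither shows a preference for a position. Summits near the start had a median of 7.69-fold over a background of 1.64, those between the ends 5.74-fold over 5.56, and those near the 3′ end 5.96-fold over 4.94. Over protein-coding genes the values were 7.40-fold over 1.66, 6.12-fold over 4.20 and 5.14-fold over 6.79.

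**Figure D2:**
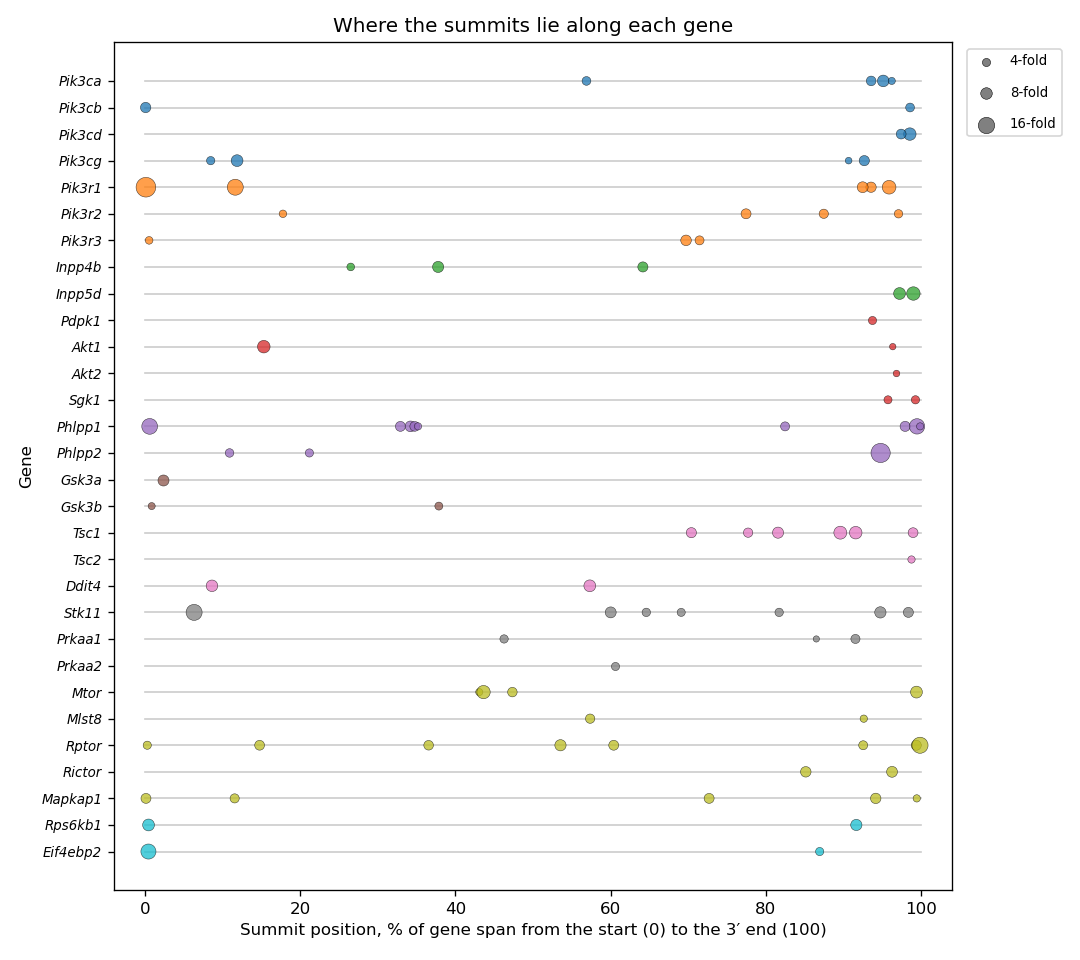
Position of each summit along the gene span, as a percentage from the start (0) to the 3′ end (100), for the 30 stranded genes of the list, with point area in proportion to fold enrichment. Large points sit at the start of Pik3r1, Phlpp1, Stk11 and Eif4ebp2 and near the 3′ end of Phlpp2, Phlpp1 and Rptor, while all 6 Tsc1 summits lie beyond 70% of the span.

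The fold of a peak moved with its background. Over the 102 peaks, which share 1 IP library and 1 input, Spearman's rho between fold and background was -0.39, and over all 38366 peaks it was also -0.39, where background is itself the denominator of the fold. The median summit in these genes had 34.5 IP fragments (quartiles 19.5 and 58.8) over a background of 4.88, against 32 over 3.95 for protein-coding genes. Under 20 IP fragments stood behind 26 of the 102 peaks, among them the only Deptor and Prkaa2 peaks and all 3 Inpp4b peaks. The genome-wide background of 0.462 was the denominator at 2 peaks, the highest of Pik3r1 and of Inpp4b, and at 7.43% of all peaks. Among the 11 genes whose highest peak reached 10-fold, that peak had at least 80 IP fragments in Phlpp2, Stk11, Rptor and Mtor, and 18 to 65 in the other genes. The −log10 q, which rises with depth as well as with fold, was 99.2 at the highest peak of Phlpp2, 71.3 in Stk11, 67.9 in Rptor, 54.1 in Mtor and 46.4 in Pik3r1. Pik3r1 had higher values at peaks of lower fold, 95.98 at the peak of 11.3-fold and 89.2 at that of 15.3-fold. At the highest peaks of the other genes that reached 10-fold it was 42.4 in Tsc1, 39.8 in Phlpp1, 29.3 in Eif4ebp2, 24.3 in Eif4ebp1, 23.4 in Inpp5d and 19.3 in Deptor. Among genes under 10-fold it was 61.1 in Pik3ca, from 113 IP fragments, against 27.8 in Pik3cd, 18.3 in Akt1 and 14.4 in Gsk3a. Spearman's rho between span and number of peaks was 0.12 over the 35 genes.

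**Figure D3:**
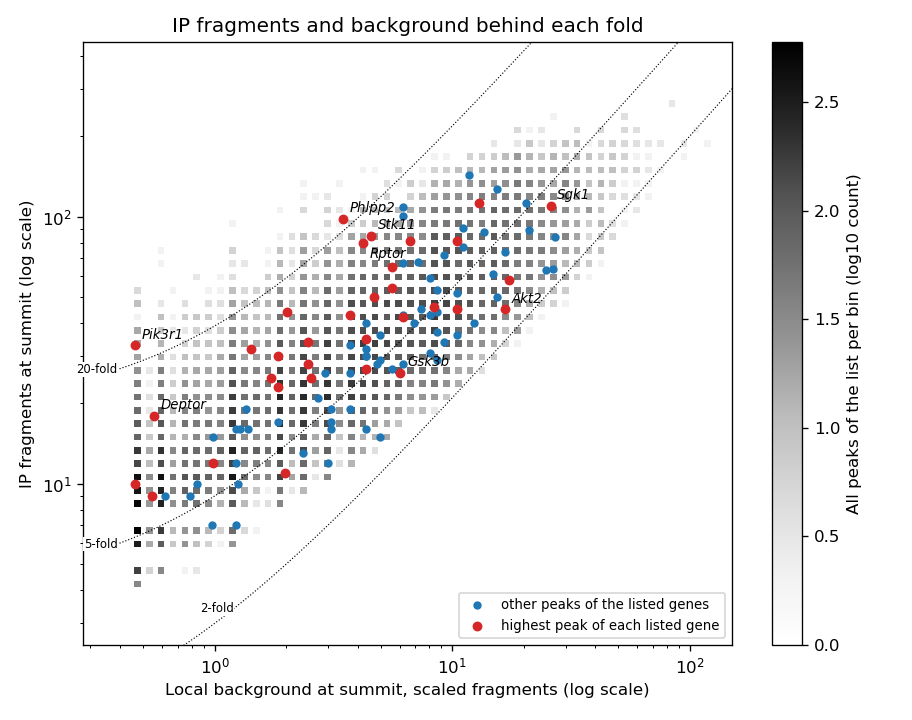
IP fragments against local background at each summit (both log scales), with the highest peak of each listed gene in red, their other peaks in blue, and all 38366 peaks as grey squares shaded by count, and dotted lines of equal fold. The highest peaks of Pik3r1 and Inpp4b lie at the left edge, at the genome-wide background, with Pik3cb and Deptor just to the right, while Phlpp2, Stk11 and Rptor combine high folds with 80 to 98 fragments, and Sgk1 has 110 fragments at a background of 25.9.

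Of the 102 summits 10 lay in more than 1 gene span: the 3 of Mtor with Angptl7, the 2 of Inpp5d with Gm33470, and 1 each in Mapkap1, Mlst8, Pik3cb, Stk11 and Tsc2. Without them 31 of the 35 genes kept a peak, and Inpp5d and Tsc2 did not. Of all protein-coding genes 51.1% had a peak when summits in more than 1 gene span were left out. With a −log10 q of at least 5 the gene lost was Prkaa2, and with a fold of at least 4 those lost were Akt2, Gsk3b and Tsc2. The shares of all protein-coding genes with a peak were then 53.1% and 51.5%.

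A wider list of 92 further pathway genes had peaks in 70 (76.1%), against 55.7% of all protein-coding genes. A peak of at least 10-fold was found in 19 of them (20.7%, against 17.5%). Of the genes with any peak this was 27.1%, against 31.4%, and the median highest fold was 7.68, so the shares at 10-fold lay near the background. Adaptors next to the receptors all carried peaks: 5 of 5, with Irs2, an insulin receptor substrate, at 23.6-fold (17.2 to 31.6) and Irs1 at 8.84-fold. All 4 FoxO genes, transcription factors that Akt keeps out of the nucleus, had peaks, led by Foxo6 at 20.5-fold over the genome-wide background and Foxo1 at 10.8-fold. Foxo1 is known as a regulator of decidual genes. Of 9 other PI3K subunits and adaptors 8 had a peak, all but Pik3c2g, with Pik3r5 at 15.0-fold and Pik3c2a at 12.2-fold. The highest summit of Pik3c2a also lay in another gene span. Other lipid phosphatases had 4 of 5, all but Mtmr1, with Inpp5e at 7.80-fold and Inppl1 at 7.52-fold. Akt substrates and partners had 6 of 7, all but Tcl1, with the Rab regulators Tbc1d4 at 16.7-fold and Tbc1d1 at 15.7-fold.

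Further lists held genes around mTOR itself. Of the remaining mTOR and TSC subunits 4 of 6 had a peak, all but Tbc1d7 and Telo2, with Prr5, a subunit of mTOR complex 2, at 21.8-fold (15.5 to 29.9) and Tti1 at 11.3-fold. The Rag GTPases and Ragulator, which bring mTOR complex 1 to the lysosome, had 7 of 9, all but Lamtor3 and Lamtor5, with Rragb at 13.7-fold and Lamtor1 at 9.80-fold. The Rragb peak rested on 19 IP fragments over the genome-wide background. The nutrient-sensing arm had 12 of 20, with Wdr59 at 11.8-fold and Fnip1 at 9.61-fold, a share near the 55.7% of all protein-coding genes. Remaining LKB1 and AMPK partners had 7 of 10, all but Prkag3, Stradb and Camkk2, with Cab39 at 13.3-fold and Prkab1 at 12.1-fold. Translation factors had 8 of 10, all but Eif4a1 and Eif4ebp3. Their highest were Larp1, which binds mRNAs of the translation machinery, at 11.7-fold and Pdcd4 at 9.12-fold. Other targets of the mTOR complexes had 5 of 7, all but Lpin1 and Sgk2, with the lysosomal regulators Tfeb at 11.6-fold and Tfe3 at 9.53-fold.

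**Figure D4:**
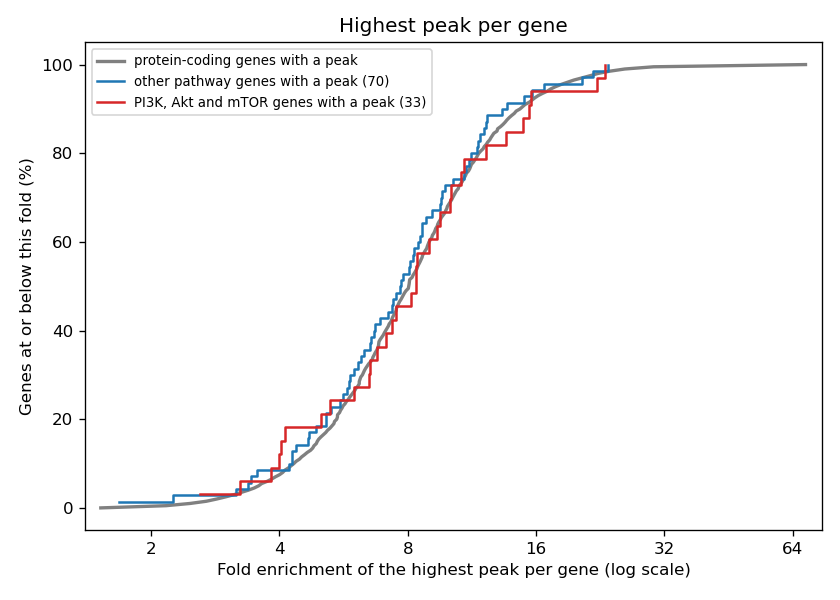
Cumulative share of genes (%) by the fold enrichment of their highest peak (log scale), for the 33 listed genes, the 70 further pathway genes and all 12134 protein-coding genes with a peak. The 3 curves run close together, with medians of 8.36, 7.68 and 8.04-fold.

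Markers of the tissue carried peaks in all 4 smooth muscle, all 7 stromal and decidual, all 4 epithelial and all 4 endothelial genes checked, where 55.7% of all protein-coding genes did. Peaks were found in 2 of 4 immune and 2 of 4 trophoblast markers, shares near that background, and Cd68, Cd3e, Elf5 and Prl3d1 had none. Peaks were present in Pik3cd, Pik3cg and Inpp5d, genes best known from blood cells, though those of Inpp5d were shared with Gm33470. Among the immune markers Ptprc and Adgre1 had peaks and Cd68 and Cd3e had none. Which cells held these transcripts was not tested.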

How the data were processed

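Total RNA of whole uterus was extracted with TRIzol and made into strand-keeping libraries, per the labels' protocols. The submitters' processing notes name HISAT2 (2.2.1), MACS3 (3.0.0a7) and mm10. Settings, filters and duplicate handling were not given in the sources used here. For each summit the deposited peak list gives a fold (the ratio of IP to background), a −log10 p and a −log10 q. Its display score, also deposited by the authors, was not used. The lowest −log10 q was 1.32.

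IP fragments (k) and background per summit were recovered from the deposited fold, as (k + 1)/(background + 1), and −log10 p, as a Poisson tail above k. The −log10 p was met within 0.001 at 100% of peaks. Of 2000 peaks simulated with these same formulas 100% were recovered, which checks the calculation and not the formulas. Reads copied by PCR are not independent, and every interval covers counting error alone. Total depth of the libraries is not given.

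Gene spans came from RefSeq for GRCm38.p6 (49632 genes on assembled chromosomes). Strand and starts came from RefSeq start windows, which matched 31 of the 35 genes. Exons were not used, so a summit in an intron counts. Members and gene lists were chosen with earlier results of these data known, and the pairs of related genes after the values were seen. Named were all members, with full values for the highest peak of each role and the 12 highest members, and in each further list the 2 highest genes and those lacking a peak where at most 3. Tools were scipy 1.17.1, numpy 2.4.6, pandas 2.3.3, matplotlib 3.10.9 and Python 3.11.15.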

Additional observations from a re-analysis of the deposited data

How the results depend on the processing

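The counts of genes and peaks stayed within 1.5 times of those reported under all 6 alternative rules for calling or linking a peak. Genes with a peak ranged from 30, with a fold of at least 4, to 34, with 1 base of overlap, and peaks from 84 to 103. Of all protein-coding genes 51.5% and 56.1% had a peak under these rules. Genes with a peak of at least 10-fold numbered 9 when summits in more than 1 gene span were left out and 11 otherwise. Over all protein-coding genes the share at 10-fold was 15.7% without such summits and 17.4 to 17.8% otherwise. Further pathway genes with a peak ranged from 64, with a fold of at least 4, to 71, with 1 base of overlap. The shares of all protein-coding genes under these rules are those given above. The median highest fold moved when the median over the peaks of each gene replaced the highest peak, to 5.99, where all peak-carrying protein-coding genes had 6.16. No 2 peaks shared an interval, so merging equal intervals changed nothing. No paired analysis was possible because each group held 1 library, and no library could be left out. Depth limits the thin peaks most: an interval on 10 IP fragments, as in Inpp4b, ran from 3.96 to 13.3-fold. Neither the error of the background nor differences between animals enter the intervals. Nor does any difference in RNA between the IP and input samples, whose match is not known.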
